A study of Mus musculus with 6 samples.

Results

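NOVA1 HITS-CLIP clusters that lay in the 3' UTR of a protein-coding transcript and had no NOVA2 cluster on the same nucleotides are described here. HITS-CLIP is a method in which RNA is crosslinked to a protein by ultraviolet light, recovered with an antibody and sequenced, and a cluster is a stretch of genome covered by the recovered reads, or tags. Brain tissue, the cortex of wild-type CD1 mice at embryonic day 18.5, was used for all libraries, 3 with an antibody to NOVA1 and 3 with an antibody to NOVA2. One pooled cluster list per protein was analysed, so every value below stands for 3 libraries together and the spread between libraries is unknown. The members were chosen by measured values of these same data: the tag count that put a cluster on the NOVA1 list, and the lack of a NOVA2 cluster overlapping by 1 nt or more on the same strand. There were 981 such NOVA1-only 3' UTR clusters in 725 genes, of 3765 NOVA1 3' UTR clusters, 9988 NOVA1 clusters of any kind and 46579 clusters in both lists.

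NOVA1 and NOVA2 are closely related neuronal RNA-binding proteins. Each binds RNA through KH domains, which recognise the tetramer YCAY, where Y is C or U, mostly where several copies lie close together. They are best known for regulating alternative splicing by binding introns and exons of pre-mRNA in the nucleus. Binding in 3' UTRs has been linked to the choice of polyadenylation site, to mRNA localisation and to mRNA stability.

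The sequences of 10 members are shown first, because closely spaced YCAY is the feature by which NOVA binding is known. They were the members of highest tag count that held 3 or more YCAY within 30 nt, leaving out 1 chromosome. Each line gives the 30 nt with the most YCAY on the RNA strand, 5′ to 3′, in the mm9 build, and YCAY is in capitals.

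Eef2, chr10:80644919-80644948, plus strand: CCACccugacaUCACucagcacUCACuugc
Reep1, chr6:71759416-71759445, plus strand: CCAUcagcugggccuuggCCAUuUCACaaa
Dpysl2, chr14:67423242-67423271, minus strand: CCACCACCAUaguuuugugcuauccuaguu
Ncan, chr8:72619195-72619224, minus strand: CCACagcaaUCAUccuuucucaaCCACcug
Plxna4, chr6:32099244-32099273, minus strand: UCAUCCACCAUuggaagaaacauacuuaca
Prrc2b, chr2:32089092-32089121, plus strand: UCACauccaaagCCACgcuugcucugCCAC
Nedd4, chr9:72596598-72596627, plus strand: acgcuuuCCACagaCCACaCCACuauguug
Crtc1, chr8:72909669-72909698, minus strand: cccUCAUcagauacccaaagugUCACUCAC
Prrc2b (second cluster), chr2:32087163-32087192, plus strand: ccuguCCAUUCACuccUCACagcuuaUCAC
Clstn1, chr4:149022724-149022753, plus strand: aCCACCCACacagcacagcucuUCAUUCAC

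The windows of the second Prrc2b cluster and of Clstn1 held 4 YCAY and the other windows held 3. In the window of Nedd4 each YCAY was CCAC, and in that of Plxna4 the run began with UCAU. Dense YCAY was not general among the strongest members, since 15 members with more tags than that of Clstn1 had no such window. The member with the most tags of all, in Agap2, had 2 YCAY in 106 nt and no more than 1 in any 30 nt. Both leading clusters of Dpysl3 had no more than 2 in 30 nt, although they held 11 and 12 in all.

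NOVA2 overlap was missing for 26.1% of NOVA1 3' UTR clusters (Wilson 95% interval 24.7 to 27.5). Over NOVA1 clusters of all classes the share was 19.9%, and because the rule used this very comparison nothing is read from the difference. The share was 61.9% (58.6 to 65.1) of 864 NOVA1 clusters in coding sequence and 4.50% (3.9 to 5.19) of 4022 in introns. Intervals here and below cover counting error only, and clusters of the same gene are not independent.

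Members held few tags. Their median tag count was 13 (quartiles 11 and 17, highest 129), beside 22 (quartiles 14 and 42) for the 2784 NOVA1 3' UTR clusters shared with NOVA2 and 14 (quartiles 11 and 20) for the 1568 NOVA2 3' UTR clusters without NOVA1. Of the members, 37.3% had 10 or 11 tags and 15.9% had 20 or more, and of the shared clusters 11.7% and 56.1%. Their median width was 143 nt (139 to 149), against 153 nt (149 to 157) for shared and 108 nt (105 to 110) for NOVA2-only 3' UTR clusters. At matched NOVA1 tag counts the order of members and shared clusters was turned in each class, with medians of 125 and 104 nt at 10 or 11 tags, 170 and 134 nt at 15 to 19 and 245 and 198 nt at 30 to 49.

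The share of NOVA1 3' UTR clusters without NOVA2 fell in each step of the tag count. It was 52.9% (49.2 to 56.6) at 10 or 11 tags, 28.3% (25 to 31.9) at 15 to 19 tags and 1.78% (0.971 to 3.25) at 50 or more. Shared clusters with 10 or 11 NOVA1 tags that met a single NOVA2 cluster had a median of 18 NOVA2 tags there, and 56.5% of them had under 20. The deposited lists begin at 10 tags, so a NOVA2 site with fewer tags in a member could not be seen, and absence from the list is not absence of binding. Per the study, the NOVA2 libraries held more unique tags in all than those of NOVA1, and the NOVA2 list was the longer one, with 36591 clusters.

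The share rose with base composition in each step. It was 17.6% (16.0 to 19.4) of NOVA1 3' UTR clusters with under 40% GC, 32.8% (28.9 to 37.0) of those with 45 to 50% and 53.6% (46.8 to 60.2) of those with 55% or more. How far the base composition of the RNA affects crosslinking, amplification or alignment in either set of libraries was not tested.

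**Figure D1:**
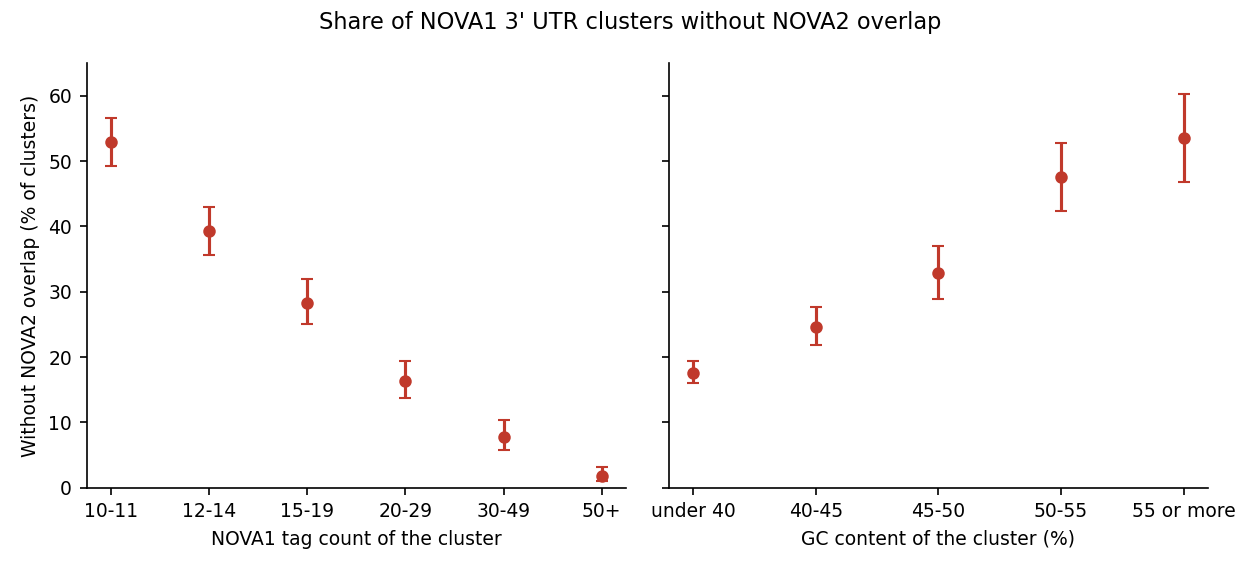
Percent of NOVA1 3' UTR clusters without NOVA2 overlap by NOVA1 tag count (left) and by GC content of the cluster (right); points are shares and bars Wilson 95% intervals. The share falls from 52.9% at 10 or 11 tags to 1.78% at 50 or more, and rises from 17.6% under 40% GC to 53.6% at 55% GC or more.

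The median GC content of the members was 44.1% (43.3 to 44.8), of shared clusters 38.8% (38.3 to 39.2) and of NOVA2-only 3' UTR clusters 37.2% (36.7 to 37.6). The rest of the same 3' UTRs, outside every cluster of either list, had a median of 43.8% for members and 40.3% for shared clusters. Members thus lay in 3' UTRs of higher GC content, and 48.3% (45.2 to 51.5) of them exceeded their own 3' UTR. Of shared clusters 36.7% (34.9 to 38.5) did. U made up 28.9% of the nucleotides of members, 33.1% of shared clusters and 35.4% of NOVA2-only clusters, and G made up 21.4%, 18.5% and 16.8%.

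**Figure D2:**
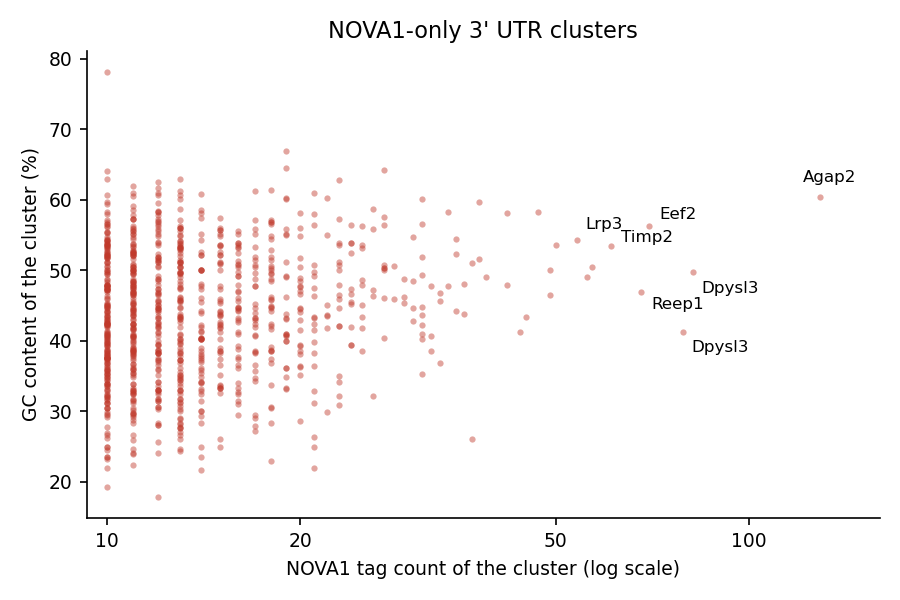
Each point is 1 of the 981 NOVA1-only 3' UTR clusters, with its pooled NOVA1 tag count (x axis, log scale) and GC content in percent (y axis). Most points lie below 20 tags, the Agap2 cluster stands alone at 129 tags, and the named clusters of highest tag count lie between 41.3% and 60.4% GC.

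YCAY was denser in members than in the rest of their own 3' UTRs. They held 24.1 YCAY per 1000 possible start positions (23.4 to 24.9), which was 1.58-fold (1.53 to 1.63) the density of the same 3' UTRs outside clusters. Shared clusters held 27.1 (26.6 to 27.5), a fold of 1.95 (1.92 to 1.98), and NOVA2-only 3' UTR clusters 29.9 (29.1 to 30.7), a fold of 2.02 (1.97 to 2.08). The density of members was therefore lower than that of both other sets, with intervals that did not overlap. The median count per cluster was 3 YCAY in members, 4 in shared and 3 in NOVA2-only clusters. Widths differed as given above, and the part of width in these densities was not tested.

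YCAY was present in 96.2% of the 942 members for which windows of the same length could be taken from the same 3' UTRs, and in 84.3% of those windows. It was missing from 3.77% (2.75 to 5.16) of members and from 1.19% (0.845 to 1.66) of shared clusters. Within 10 nt of the midpoint a YCAY began at 3.0% of positions in members, 3.57% in shared and 4.02% in NOVA2-only clusters. At 150 to 200 nt from the midpoint the values were 1.74%, 1.68% and 1.70%, so the 3 sets differed at the centre and were alike at that distance.

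**Figure D3:**
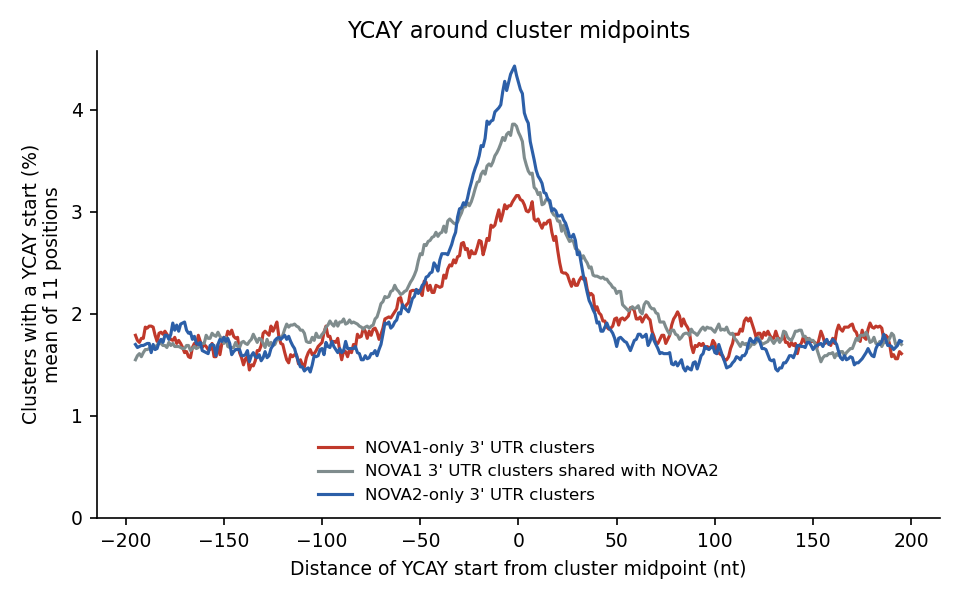
Percent of clusters with a YCAY starting at each distance in nt from the cluster midpoint, averaged over 11 positions, for NOVA1-only, shared and NOVA2-only 3' UTR clusters. The 3 curves peak at the midpoint, with NOVA1-only clusters lowest there, and run together beyond about 150 nt.

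Windows of 30 nt with 3 or more YCAY were found in 27.7% (25 to 30.6) of members, 38.7% (36.9 to 40.5) of shared clusters and 30% (27.8 to 32.3) of NOVA2-only clusters. Wider clusters have more room for such a window, and widths differed as given above. At matched NOVA1 tag counts the density of members was the lower one in each class, though not always beyond the intervals. Members were also the wider clusters in each of these classes, so width was not matched. At 12 to 14 tags it was 23.9 per 1000 starts (22.4 to 25.5) in members and 29.3 (27.8 to 30.8) in shared clusters, and at 30 to 49 tags it was 21.3 (18.7 to 24.2) and 26.6 (25.6 to 27.6). At 20 to 29 tags the intervals overlapped, with 24.4 (22.5 to 26.5) and 26.5 (25.4 to 27.5). The fold over the same 3' UTRs was lower in members in each class but the highest, where 10 members of 50 or more tags had 2.06 and shared clusters 1.97.

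Split by GC content, the sets parted only among clusters richer in GC. Under 40% GC the densities were 25.2 per 1000 starts (23.7 to 26.8) in members, 26 (25.4 to 26.6) in shared and 26.3 (25.4 to 27.3) in NOVA2-only clusters, with intervals that overlapped. At 55% GC or more they were 23.8 (21.9 to 25.9), 31.6 (29.5 to 34.0) and 49.5 (43.9 to 55.8), from 113, 98 and 49 clusters. Neither width nor tag count was matched within a class of GC content. The density of members stayed between 22.8 and 25.2 in the 5 classes of GC content.

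The members also differed in which YCAY they held. UCAU made up 29.1% of the YCAY in members, 38.2% in shared clusters and 40.3% in NOVA2-only clusters. CCAC made up 21.0%, 14.5% and 13.2%. Set against the rest of the same 3' UTRs, UCAU was 2.02-fold as dense in members and 2.77-fold in shared clusters, UCAC 1.94-fold and 2.20-fold, and CCAU 1.47-fold and 1.79-fold. CCAC was close to its surroundings in each set, at 1.09-fold in members, 1.07-fold in shared and 1.14-fold in NOVA2-only clusters.

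Of all tetramers, UCAU ranked first over the same 3' UTRs in each of the 3 sets, with a log2 ratio of 1.01 in members, 1.47 in shared and 1.47 in NOVA2-only clusters. In members it was followed by UCAC at a log2 ratio of 0.95, by UUCA at 0.82 and by CAUC at 0.80, words that contain or overlap YCAY. The order at the top was thus much like that in shared clusters, with smaller ratios.

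Counted in nucleotides, members lay farther from the annotated 3' end than the other sets. Their midpoints were a median of 1241 nt (1130 to 1309) from the stop codon and 1335 nt (1241 to 1443) from the annotated 3' end, in spliced nucleotides, and those of shared clusters 1162 nt (1102 to 1232) and 1115 nt (1049 to 1187). NOVA2-only clusters were at 1294 nt (1217 to 1365) and 1021 nt (940 to 1097), so the distance from the stop codon did not set the members apart. The longest 3' UTR of a gene with a member had a median of 2715 nt (2584 to 2868), against 2367 nt (2267 to 2471) for genes with a shared cluster and 2473 nt (2326 to 2593) for genes with a NOVA2-only cluster. As a percent of 3' UTR length, the median position was 47.7% (44.1 to 50.4) in members and 50.1% (48.3 to 52.4) in shared clusters. These 2 intervals overlapped, and NOVA2-only clusters were at 54.1% (51.6 to 56.3). Within 200 nt of the annotated 3' end lay 9.48% (7.80 to 11.5) of members, 12.8% (11.6 to 14.1) of shared and 14.3% (12.6 to 16.1) of NOVA2-only clusters. The interval of the members lay below both others, narrowly so for shared clusters. With 1 member per gene the share was 11.2% (9.08 to 13.7), an interval that overlapped those of both other sets. That setting was not recomputed for the other sets.

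The polyadenylation signal AATAAA, searched on the cluster strand, was in 6.32% (4.96 to 8.02) of members and 14.2% (13.0 to 15.6) of shared clusters. Windows of the same length could be taken from the same 3' UTRs for 942 members and 2521 shared clusters, of which 5.52% (4.23 to 7.17) and 13.0% (11.8 to 14.4) held it, beside 7.93% and 11.8% of their windows. A match is not by itself a used signal.

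NOVA2 clusters often lay near members, and the distances are given without a comparison to other positions. The nearest NOVA2 cluster on the strand lay within 1000 nt of 56.8% (53.7 to 59.8) of members and over 10 kb away, or missing from the strand, for 23.8% (21.2 to 26.5). A NOVA1 cluster shared with NOVA2 lay less than 200 nt away from 24.3% of members and less than 10 nt away from 3.67%. A NOVA2 cluster somewhere in the gene was found for 599 of the 725 member genes, in the 3' UTR for 449 and in an intron for 448. The intron share was 61.8% (58.2 to 65.3), beside 59.5% (56.9 to 61.9) of genes with a shared 3' UTR cluster. These gene sets had 387 genes in common, which draws the shares together, so nothing is read from their likeness. In 135 genes NOVA2 had clusters in introns and none in the 3' UTR, and 126 genes with 140 members had no NOVA2 cluster at all. Genes with a shared cluster have a NOVA2 cluster by definition, so these 126 stand among all 1813 genes with a NOVA1 3' UTR cluster. They include Npcd, with 4 members whose gene is uncertain. The counts of 449 and 135 genes are given without a comparison to other genes.

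The border of the rule was thin in places. In Mylip, Tnpo1, Mapre2, Trip12 and Prrc2b a member adjoined a NOVA2 cluster with a gap of 0 nt, and those NOVA2 clusters held 12 to 55 tags. Just outside the rule, clusters in Araf, Prmt2 and Lrfn5 overlapped NOVA2 by 1, 2 and 3 nt. A gap under 10 nt was found for 25 members, and 208 members had exactly 10 tags, the lowest count in the list.

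Both kinds of NOVA1 cluster stood together in 387 genes, which allowed members and shared clusters of the same gene to be compared. YCAY was denser in the shared clusters in 240 of these genes (62.0%, 57.1 to 66.7), with medians of 27 and 22.7 per 1000 starts. GC content was higher in the members in 242 genes, with medians of 43.4% and 40.3%. The highest tag count was that of a shared cluster in 342 genes. Nothing is read from this count, since the share of clusters without NOVA2 fell with the tag count. A maximum also depends on how many clusters of each kind a gene holds. Each comparison was made within a gene, which may have more than 1 annotated 3' UTR, and the part of RNA abundance was not tested. Neither tag count nor width was matched, with median widths of 148 nt in members and 170 nt in shared clusters.

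Tag counts of both proteins can be set side by side only at shared clusters. The lists begin at 10 tags for each protein, which bounds these ratios as it bounds the members, and member genes were themselves set by the rule, so the values are a description. Counts were not scaled to depth, and per the study the NOVA2 libraries held more unique tags. Equal counts therefore do not mark equal binding, and only differences between groups of clusters are described. At 2146 3' UTR clusters that overlapped one to one, the log2 of NOVA1 tags over NOVA2 tags had a median of -0.40 (-0.45 to -0.35), beside -2.04 (-2.08 to -2.0) at 3452 intron clusters. In genes that also held a member the 3' UTR ratio was -0.24 (-0.31 to -0.11, 774 clusters), and in genes without a member it was -0.49 (-0.55 to -0.45, 1372 clusters). The shared clusters of member genes thus carried more NOVA1 relative to NOVA2 at these positions. Median NOVA1 tags there were 25 against 19, and median NOVA2 tags 28.5 against 27.

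The log2 ratio also stood higher at GC-rich 3' UTR clusters, at -0.48 (-0.53 to -0.42) under 40% GC, -0.24 (-0.38 to -0.04) at 45 to 50% GC and 0.00 (-0.42 to 0.30) at 55% or more, where only 65 clusters were available. At intron clusters it was -2.03 (-2.07 to -1.97) under 40% GC and -2.03 (-2.21 to -1.89) at 45 to 50% GC, so no such step was seen there. Under 40% GC, member genes were at -0.30 (-0.39 to -0.23) and other genes at -0.56 (-0.63 to -0.49). In each class of 40% GC or more the intervals of member and other genes overlapped.

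**Figure D4:**
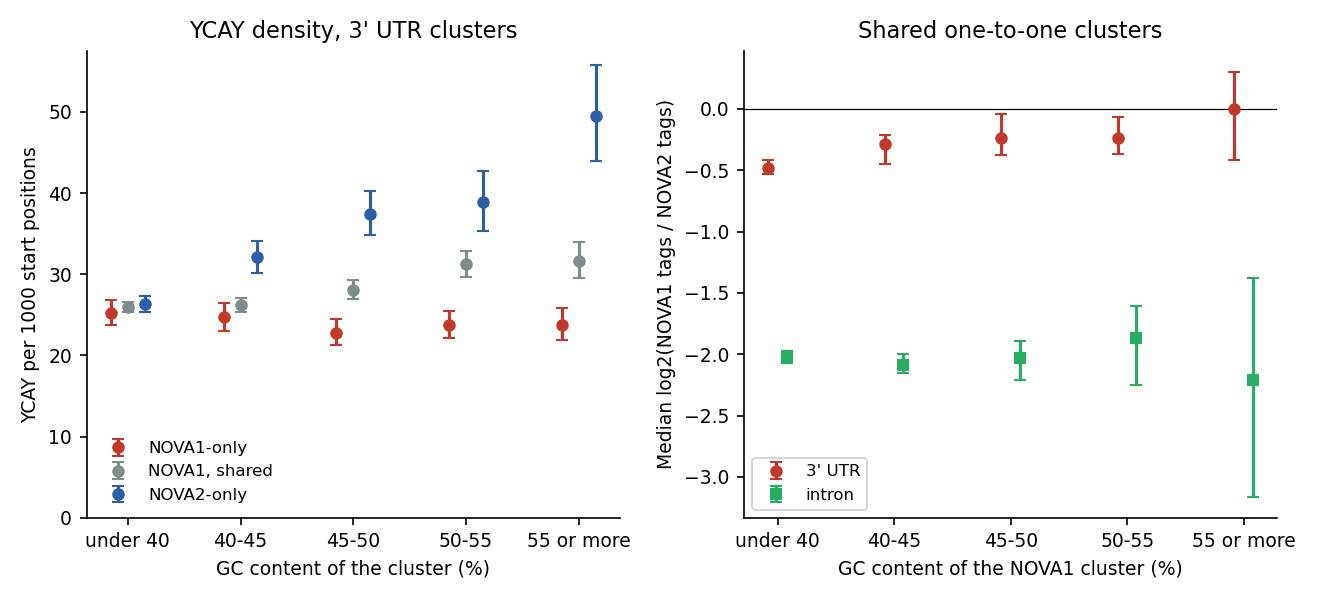
Left, YCAY per 1000 start positions in NOVA1-only, shared NOVA1 and NOVA2-only 3' UTR clusters by GC content in percent, with Wilson 95% intervals. Right, median log2 of NOVA1 tags over NOVA2 tags, not scaled to depth, at shared one-to-one clusters in 3' UTRs and introns by GC content, with 95% intervals of the median. The 3 densities are alike under 40% GC and lie at 23.8, 31.6 and 49.5 at 55% GC or more, and the 3' UTR ratios lie between -0.48 and 0.00 while the intron ratios stay near -2.

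The member of highest tag count lay in Agap2, which encodes a GTPase-activating protein for Arf GTPases. It covered chr10:126529949-126530054 on the plus strand, 223 nt from the annotated 3' end, with 129 tags and 60.4% GC. Agap2 held no NOVA2 cluster, and the nearest on the strand was 177577 nt away. No other annotated gene overlapped the cluster.

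Dpysl3, a collapsin response mediator protein of growing axons, followed with clusters of 82 and 79 tags, and its relative Dpysl2 had a member of 57 tags. NOVA2 was near each of these 3 clusters, at 120, 527 and 158 nt. Eef2, the elongation factor that moves the ribosome along mRNA, had a member of 70 tags over 565 nt, the greater part of which ran through a 3' UTR of 428 nt. Its sequence had 2 further copies in the genome, so its tags are uncertain.

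Reep1, a protein that shapes the endoplasmic reticulum, had a member of 68 tags with 13 YCAY. Timp2, an inhibitor of matrix metalloproteinases, had 61 tags, and Ncan, a chondroitin sulfate proteoglycan of the brain's extracellular matrix, had 56. NOVA2 clusters lay 81 nt from the member of Reep1, 86 nt from that of Timp2 and 12660 nt from that of Ncan. Lrp3, of the low-density lipoprotein receptor family, had 54 tags at a place where Slc7a10 is annotated on the other strand.

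The members of Chd3, a chromatin remodeller, of Kif1a, a kinesin that carries synaptic vesicle precursors, of Sdc3, a cell surface heparan sulfate proteoglycan, and of Tmod2, which caps actin filaments, had 50, 49, 47 and 44 tags. They held 3, 7, 3 and 2 YCAY. The Tmod2 member was 16 nt from a NOVA2 cluster of 64 tags, in a 3' UTR that also held 13 shared clusters.

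One member was found in 565 genes, 2 in 101, 3 in 36 and 4 or more in 23. Adcy1, the calcium-stimulated adenylyl cyclase of neurons, held the most, with 8 along a 3' UTR of 8794 nt. Their tag counts ran from 10 to 20 and they held 48 YCAY together, at least 3 in each. No shared cluster and no NOVA2 cluster lay in this 3' UTR, although 4 NOVA2 clusters lay in introns of the gene.

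Lsamp, a cell adhesion molecule of limbic neurons, held 7 members of 11 to 29 tags between 4 shared clusters of up to 240 NOVA1 tags, and 133 NOVA2 clusters lay in its introns. Plxna4, a receptor for semaphorins in axon guidance, held 6 members of 11 to 49 tags. Its strongest member had 22 YCAY, the most in any member, and ended 40 nt from a NOVA2 cluster. Prrc2b held 6 members of 10 to 45 tags, a single shared cluster of 11 NOVA1 tags, and 8 NOVA1 clusters without NOVA2 in its coding sequence. The lincRNA Gm13610 is annotated opposite the Prrc2b member of 45 tags.

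**Figure D5:**
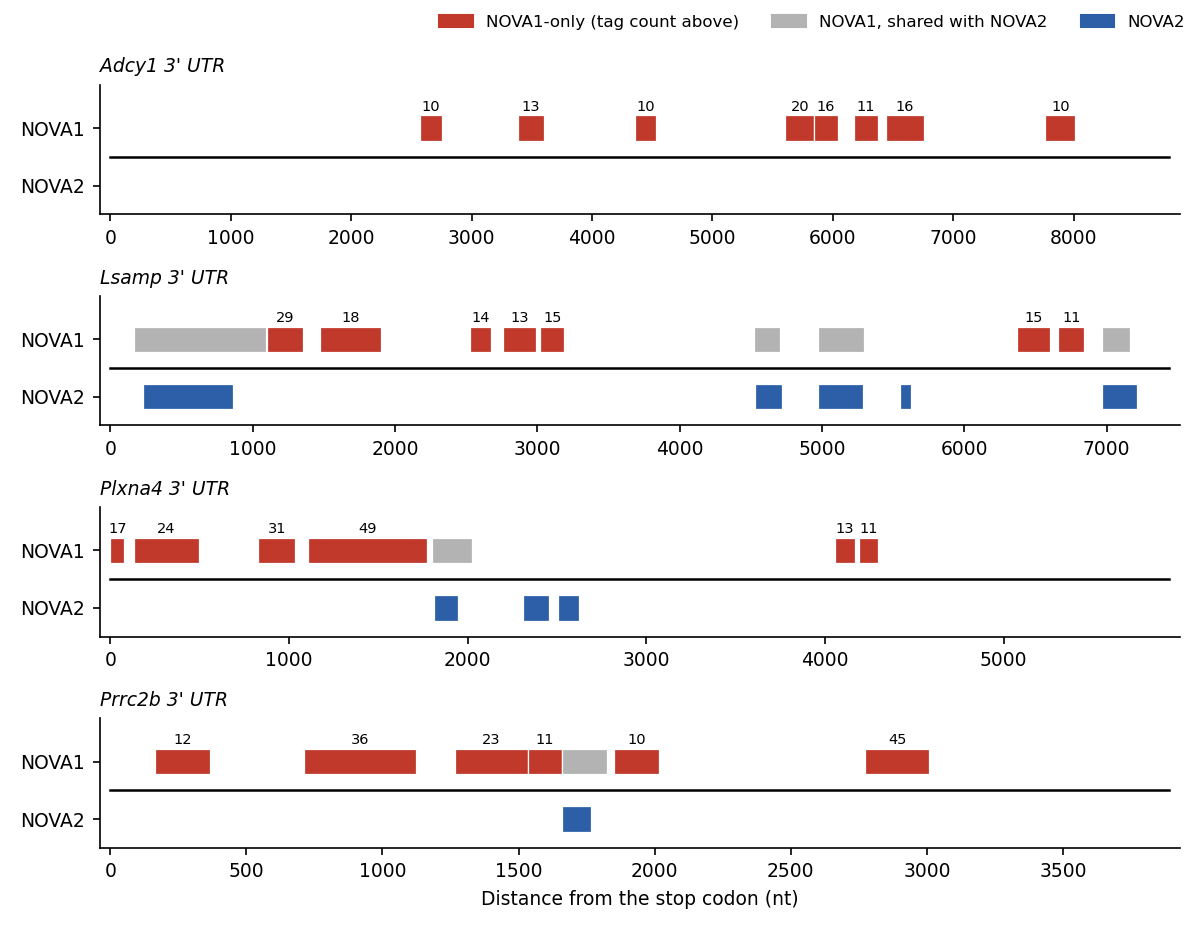
3' UTRs of Adcy1, Lsamp, Plxna4 and Prrc2b drawn to scale by distance in nt from the stop codon, with NOVA1 clusters above and NOVA2 clusters below the line; red, NOVA1-only with the tag count above; gray, NOVA1 shared with NOVA2; blue, NOVA2. Adcy1 has 8 NOVA1-only clusters and no NOVA2 cluster, the 7 of Lsamp stand among 4 shared clusters, and Plxna4 and Prrc2b have 6 each beside a single shared cluster.

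Sdc3 held 5 members of 16 to 47 tags, Tmod2 5 of 10 to 44 and Ntrk2, the receptor for the growth factor BDNF, 5 of 13 to 28. In Ncan, 4 members stood in a 3' UTR with no shared and no NOVA2 cluster, beside 4 NOVA1-only clusters in its coding sequence. Genes with a member held a NOVA1-only cluster in coding sequence in 13.2% of cases (11 to 15.9). Among all genes with a shared 3' UTR cluster it was 10.5% (9.04 to 12.2), an interval that overlapped that of member genes. In those of them without a member it was 8.36% (6.86 to 10.2). Lack of NOVA2 overlap chose both the members and these coding sequence clusters, so the shares are a description. NOVA1 intron clusters were found in 30.2% (27 to 33.6) of member genes and 28.0% (25.8 to 30.3) of genes with a shared cluster. The 4 members assigned to Npcd lay in 3' UTRs of more than 1 gene, and their gene is uncertain.

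Genes were grouped into lists by function, and of the NOVA1 3' UTR clusters in each list the share without NOVA2 was set beside the 26.1% of all of them. Genes of the synapse held 36 members among 80 clusters, or 45% (34.6 to 55.9), in 22 genes. Shisa7, an auxiliary protein of neurotransmitter receptors, and Dlg2, a postsynaptic scaffold, held members of 27 and 25 tags. The median GC content of the NOVA1 3' UTR clusters of the synapse list was 46.5%, against 39.9% for all NOVA1 3' UTR clusters, and their median tag count 16 against 18. The part of base composition in this share was not tested.

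At the other end, genes of RNA-binding proteins held 10 members among 80 clusters, or 12.5% (6.93 to 21.5). The NOVA1 3' UTR clusters of this list had a median GC content of 38.5%, against 39.9% for all, and a median tag count of 21 against 18. The part of either in this share was not tested, and no interval was adjusted for the number of lists. The highest had 18 tags, in Hnrnpd, which binds AU-rich RNA. Celf2, a splicing regulator, had a member of 16 tags beside 9 shared clusters. Nova2 itself had a NOVA1-only cluster of 16 tags in its 3' UTR, beside 9 shared clusters.

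Transcription factors of the cortex held 5 members among 37 clusters (13.5%, 5.91 to 28.0), 1 of them in Ctnnb1, the beta-catenin of Wnt signalling and cell adhesion, with 30 tags. The same list held 56 NOVA2-only clusters, which was 3.57% of all NOVA2-only 3' UTR clusters, where it held 0.510% of members. Their NOVA1 3' UTR clusters had a median GC content of 37.1%. The interval of their share of members included the 26.1% of all NOVA1 3' UTR clusters, and that of the RNA-binding proteins did not.

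Lists of neuronal connection lay nearer to the share of all clusters. Axon guidance genes held 22 members among 66 clusters (33.3%, 23.2 to 45.3), with Plxna1, a semaphorin receptor, at 34 tags and Efnb3, an ephrin, at 24. Adhesion genes held 38 among 119 (31.9%, 24.2 to 40.8), with the cadherin Cdh4 at 38 tags. Receptors and channels held 35 among 115 (30.4%, 22.8 to 39.4), with the sodium channel Scn2a1 at 37 tags and the NMDA receptor subunit Grin3a at 35. In these 3 lists, too, the interval included the share of all clusters.

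The same held for calcium and G protein signalling, with 22 members among 76 clusters (28.9%, 20 to 40), for cytoskeletal proteins of neuronal growth, with 21 among 87 (24.1%, 16.4 to 34.1), and for motors, with 15 among 47 (31.9%, 20.4 to 46.2). Kif5c, a kinesin heavy chain, had a member of 36 tags. Lists of general cell function held few clusters. Ribosomal protein genes had 0 members among 2 clusters, translation factors 2 among 9, oxidative phosphorylation 2 among 6 and glycolysis 3 among 4. Chaperones had 2 among 14, ubiquitin and proteasome genes 4 among 16, tubulins and actins 4 among 22, and chromatin and histone genes 1 among 6.

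Clusters in markers of cell types were counted, since cortex tissue holds more than neurons. CLIP tags are not expression, and the lists held few clusters, so the counts do not show which cells the tags came from. Markers of microglia and of the oligodendrocyte lineage held no NOVA1 3' UTR cluster. Radial glia markers held 1 member among 8 clusters, in the glutamate transporter Slc1a3, and the astrocyte list 4 among 8, all in the glutamate transporter Slc1a2. Interneuron markers held 4 among 8, in Gad1, Slc32a1 and Erbb4, and Cajal-Retzius markers 0 of 1. Both endothelial clusters, in the collagens Col4a1 and Col4a2, were members with 11 and 15 tags. The single cluster in an erythrocyte marker, the globin Hbb-b1, was a member too, with 33 tags and the nearest NOVA2 cluster 332102 nt away. NOVA1 is a neuronal protein, and how a globin mRNA came to be in its list was not tested.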

How the data were processed

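NOVA1 and NOVA2 HITS-CLIP of E18.5 mouse cortex had 3 libraries each. Sequence reads were aligned by the authors to the mm9 build with Novoalign, per the processing notes of the submitters, and PCR duplicates were collapsed to unique tags. The deposited values are tag counts per cluster, pooled by the authors over the libraries of a protein, present in at least 2 of them, not scaled to depth, and 10 or more. The study calls the measure behind this threshold peak height, and the count is taken as that measure, so a sum of counts over clusters need not be a number of tags. Per the study, the NOVA2 libraries together held more unique tags than those of NOVA1. Library totals cannot be computed from the lists, where the counts sum to 304703 for NOVA1 and 1309270 for NOVA2.

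Clusters were assigned to the GENCODE vM1 class of most of their nucleotides on their strand, with precedence CDS, 3' UTR, 5' UTR, noncoding exon and intron. The stop codon was counted to the 3' UTR as annotated. Positions refer to the transcript with the longest 3' UTR overlapping the cluster. YCAY was counted per possible start, with the same genes' 3' UTRs outside all clusters (at least 200 nt) as background. Further copies were BLAST+ 2.17.0 matches of at least 90% identity over at least 50% of a cluster. Python 3.11.15, NumPy 2.4.6, pandas 2.3.3, SciPy 1.17.1, pysam 0.24.0 and matplotlib 3.10.9 were used. Intervals are Wilson for shares and densities and order-statistic for medians, at 95%, and folds carry the interval of the density over a fixed background. Functions were tested on simulated data. No test was run, since counts are pooled and clusters are not replicates.

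Members and the 25 gene lists were chosen with earlier results of these data known. Named were the 15 members of highest tag count, the 8 genes with most members, up to 3 genes per list, the printed sites, and clusters at the border of the rule. The cluster with the most YCAY and the genes with members in several 3' UTRs were singled out after their values were seen. Alternatives were other overlaps, tag thresholds, class assignments, transcripts, backgrounds, 1 cluster per gene and clusters without further copies. Clusters under 10 tags, single libraries and RNA-seq data were not analysed here.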

Additional observations from a re-analysis of the deposited data

How the results depend on the processing

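No paired analysis was possible because each deposited count is a single pooled value per protein, and no library could be left out for the same reason. Of 90 alternative values of 11 results, 65 stayed within the reported interval (counts of clusters within 1.5 times) and 25 did not. With NOVA1 clusters of at least 20 tags, 156 members remained (9.08%), with a median of 24 tags, a width of 206 nt, 46.8% GC, a YCAY density of 23.0 per 1000 starts and 88.5% in genes with a NOVA2 cluster. With NOVA2 clusters of at least 25 tags there were 2053 members (54.5%), with a median of 14 tags, a width of 137 nt, 41.4% GC, a YCAY density of 25.4, a fold of 1.72 over the same 3' UTRs, 2.68% without YCAY and 68.6% in genes with a NOVA2 cluster. The share without NOVA2 was 28.0% when an overlap of 50% of the shorter cluster was required, and 23.5% with NOVA2 clusters extended by 50 nt. With 1 cluster per gene the distance from the stop codon was 1066 nt, the YCAY density 25.3, its fold 1.64 and the share in genes with a NOVA2 cluster 82.6%. With the shortest fitting 3' UTR 12.9% lay near the 3' end, a setting not recomputed for shared clusters. Within 100 nt of the annotated 3' end lay 3.77%. Against flanks 200 to 500 nt away the YCAY fold was 1.36.

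Under the 7 alternatives in which members and shared clusters were both recomputed, members kept a lower YCAY density, a higher GC content, a smaller share near the 3' end and fewer tags than shared clusters. Their YCAY density lay between 23.0 and 25.4 and their GC content between 41.4% and 46.8%. The number of members depends on both tag thresholds, and a NOVA2 site under 10 tags cannot be told apart from no site.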

Other observations

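Motifs of other RNA-binding factors were searched on the cluster strand, in the 942 NOVA1-only and 2521 shared 3' UTR clusters for which windows of the same length could be taken from the same 3' UTRs. Matches of different motifs may overlap. The AU-rich element ATTTA was in 19.7% (17.3 to 22.4) of NOVA1-only and 28.7% (27 to 30.5) of shared clusters, beside 18.4% and 26% of their windows. A run of TTTTT was in 25.6% (22.9 to 28.5) and 41.4% (39.5 to 43.3), beside 27.4% and 34.8%. The Pumilio motif TGTANATA was in 3.61% (2.59 to 5.0) and 5.95% (5.09 to 6.94), beside 2.53% and 3.66%. The RBFOX motif TGCATG was in 6.58% (5.17 to 8.35) and 7.42% (6.46 to 8.51), beside 5.62% and 6.26%. The pyrimidine word TCTT was in 59.7% (56.5 to 62.7) and 67.6% (65.7 to 69.4), beside 58.1% and 62.4%. For members the share in windows lay within the interval for each of these motifs but that of Pumilio, where it lay just below. For shared clusters it lay below the interval for each of them.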
